A study of Oryza sativa with 3 samples.

Results

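Aux/IAA proteins are the transcriptional repressors of the auxin response, and 10 rice loci that encode them were followed here in roots exposed to vanadium. The loci were IAA1, IAA9, IAA10, IAA13, IAA14, IAA19, IAA20, IAA23, IAA24 and IAA31, chosen by their locus numbers. The rule used no measured value, but these 10 of the 31 listed Aux/IAA loci were picked with earlier results of these data known. They were read by 23 of the 41889 gene probes of the array and were 10 of its 29689 loci. Roots of 6-day-old seedlings of Oryza sativa, cultivar TN-67, were exposed to 1 mM vanadium, and the controls of the same age and cultivar were exposed to water. Each of 3 arrays carried RNA of one vanadium sample in the red channel and of the water sample with the same replicate number in the green channel. The replicates are described as biological, the exposure time is not given in the sources used here, and no array had its dyes swapped. The treatment and a gene-specific effect of the dye therefore cannot be told apart. The samples were whole roots, in which fewer cells of one type and less RNA per cell cannot be told apart either.

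Auxin controls root growth largely by removing Aux/IAA proteins. At low auxin these proteins bind auxin response factors (ARFs) on the promoters of auxin genes and recruit TOPLESS-type corepressors that keep the genes off. Auxin joins an Aux/IAA protein to an F-box receptor of the TIR1/AFB family, the repressor is degraded, and the ARFs become free to act. Many Aux/IAA genes are themselves switched on by auxin, which closes a negative feedback loop, so their transcripts are commonly read as a sign of auxin response. In roots the family takes part in gravitropism, in the start of lateral and crown roots and in the upkeep of the meristem. The level of a transcript does not give the level of such a short-lived protein.

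The vanadium channel had 31162 to 31331 gene probes well above background on each array and the water channel 29144 to 30997, and no spot was saturated. After filtering, 21094 loci were tested. All 10 Aux/IAA loci passed the filter, and the probe used for each was well above background in both channels on all 3 arrays. The signals below are normalised fluorescence in arbitrary units, read from 1 probe per locus (the brightest that passed), and they are compared between channels of one probe only. A log2 ratio is the log2 of vanadium over water within an array, so that 1 stands for a doubling under vanadium. Its standard error (SE) comes from limma's moderated test over all loci, and a locus was called higher or lower at a Benjamini-Hochberg adjusted p under 0.05.

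Under vanadium 7 of the 10 Aux/IAA loci were called higher, 0 were called lower and 3 did not pass the test (limma, n = 3 arrays). Of all 21094 tested loci 29.8% were called higher and 21.3% lower. The split over all loci depended on the scaling: 58.3% of called loci were higher here, against 41.4% with the log ratio of the scanner software. It also moved with the model, to 70.1% when the channels were fitted without their pairing on arrays. IAA9, IAA20, IAA19 and IAA1 were at least 2-fold higher, which held for 8.86% of all tested loci. With spots marked as outliers counted in the filter, an alternative that was the first setting used, IAA23 was read by its other probe at 1.01, which made 5 loci of that size. The count was also 5 with no filter on dim probes and without replicate 1. With median centring it was 3, as IAA1 was then at 0.97. The median log2 ratio of the 10 loci was 0.96, and that of all tested loci was 0.02. For 6 of the 10 loci, every vanadium signal of the probe used lay above every water signal, which was so for 23.5% of all tested loci. The seventh rise, that of IAA31, was small and its call was lost under 8 of 13 alternatives, while IAA9, IAA20, IAA19, IAA1, IAA23 and IAA24 were called higher under all 13. Without the pairing of channels IAA1 and IAA24 passed only narrowly (limma, adjusted p = 0.0462 and 0.0438).

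**Figure D1:**
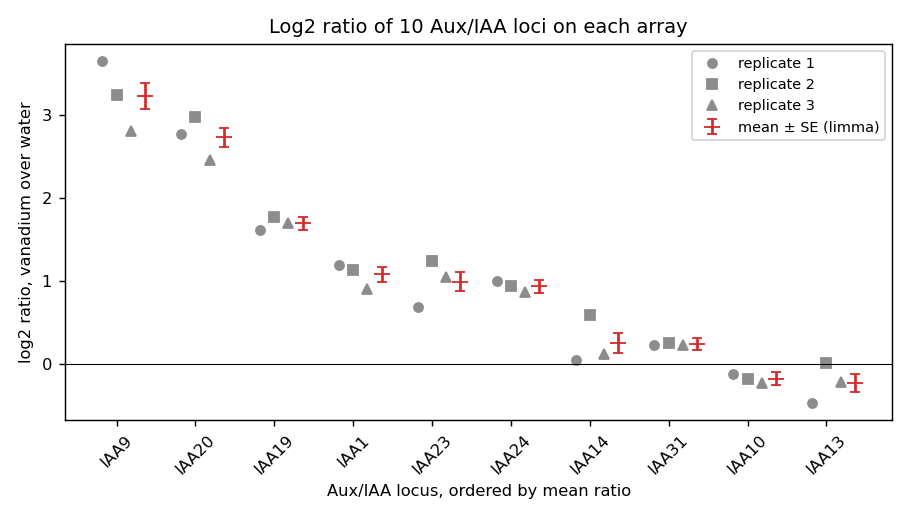
Log2 ratio of vanadium over water (vertical axis) for the 10 Aux/IAA loci, ordered by their mean. Grey symbols are the 3 arrays and red bars the mean with its SE from limma. IAA9 and IAA20 lie above 2 on every array, and IAA10 and IAA13 have means below 0.

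IAA9 (Os02g0805100, chromosome 2), which has been linked to root gravitropism, had the largest rise. Its signal was 15954, 10578 and 7220 under vanadium and 1268, 1120 and 1026 in water on replicates 1, 2 and 3. The vanadium signals were far apart among themselves, the water signals were close together, and the groups did not overlap. The log2 ratios on the same arrays were 3.65, 3.24 and 2.81. Their mean was 3.24 ± 0.16 (SE, n = 3 arrays), a 9.42-fold rise (limma, adjusted p = 1.93e-05), and only 0.863% of all tested loci had a higher ratio.

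IAA20 (Os06g0166500, chromosome 6), linked in rice to tolerance of drought and salt, followed. Its signal was 7641, 5210 and 2708 under vanadium and 1118, 662 and 494 in water on replicates 1, 2 and 3. Both channels were highest on replicate 1 and lowest on replicate 3, so the signal of its 1 probe differed between arrays more than the ratio did. The log2 ratios were 2.77, 2.98 and 2.46, with a mean of 2.74 ± 0.11 (SE, n = 3 arrays), a 6.66-fold rise (limma, adjusted p = 1.16e-05). The groups did not overlap, and 1.43% of tested loci had a higher ratio.

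IAA19 (Os05g0559400, chromosome 5) rose by a smaller but more even amount. Its signal was 4143, 5030 and 5111 under vanadium, against 1349, 1471 and 1579 in water. With log2 ratios of 1.62, 1.77 and 1.69 the arrays differed by at most 0.16. The mean of 1.70 ± 0.08 (SE, n = 3 arrays) was a 3.24-fold rise (limma, adjusted p = 1.74e-05).

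IAA1 (Os01g0178500, chromosome 1), which acts in auxin and brassinosteroid responses in rice, had a signal of 9295, 6183 and 4367 under vanadium and of 4058, 2811 and 2327 in water. As at IAA20, both channels of the probe used were highest on replicate 1 and lowest on replicate 3. At the probes of cDNA clones AK060091 and AK109373 both channels were instead highest on replicate 2. The lowest vanadium signal of the probe used stood just above the highest water signal, which came from another array. At the probe of clone AK069242 the groups overlapped, with vanadium down to 3760 and water up to 4301. The log2 ratios at the probe used were 1.20, 1.14 and 0.91. Their mean was 1.08 ± 0.09 (SE, n = 3 arrays), a 2.11-fold rise (limma, adjusted p = 0.000189).

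IAA23 (Os06g0597000, chromosome 6), needed in rice to maintain the quiescent centre of the root tip, rose by a similar amount but less evenly. Its signal was 6768, 7169 and 7038 under vanadium and 4206, 3033 and 3399 in water. The vanadium signals were nearly equal, the water signal was highest on replicate 1, and the groups did not overlap. The log2 ratios were 0.69, 1.24 and 1.05, the lowest being that of replicate 1. The mean was 0.99 ± 0.12 (SE, n = 3 arrays; limma, adjusted p = 0.000891).

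IAA24 (Os07g0182400, chromosome 7) had a signal of 8681, 5607 and 4900 under vanadium and of 4324, 2931 and 2685 in water, without overlap. Its log2 ratios of 1.01, 0.94 and 0.87 lay within 0.14 of each other. Their mean was 0.94 ± 0.08 (SE, n = 3 arrays), a 1.91-fold rise (limma, adjusted p = 0.000194).

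**Figure D2:**
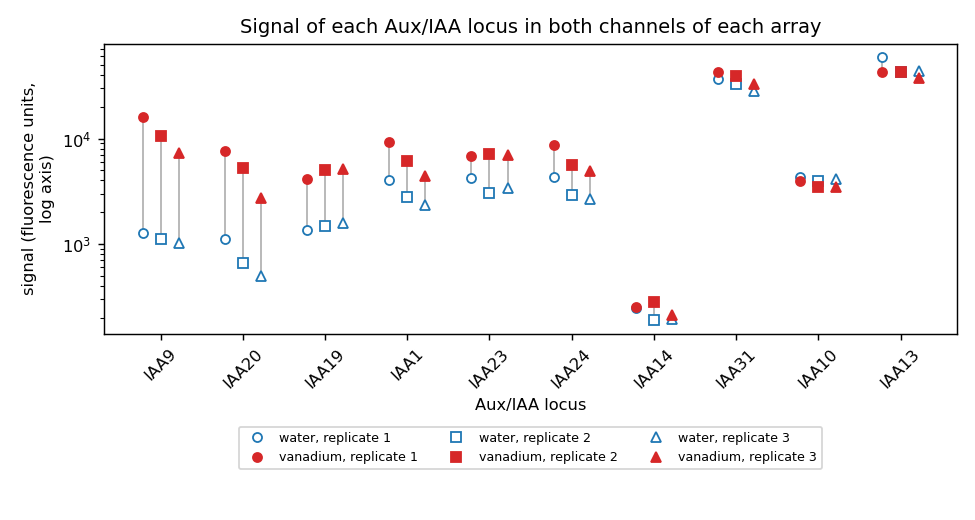
Normalised signal (fluorescence units, log axis) of the probe used for each Aux/IAA locus. Filled red symbols are vanadium, open blue symbols water, the symbol shape marks the replicate and a grey line joins the channels of one array. The red symbols lie above all blue ones at IAA9, IAA20, IAA19, IAA1, IAA23 and IAA24.

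The remaining loci lay near 0. IAA31 (Os12g0601400, chromosome 12) was bright on every array, with 42867, 39495 and 32771 under vanadium and 36474, 33083 and 27960 in water. The signals of the groups overlapped across arrays, but the log2 ratios of 0.23, 0.26 and 0.23 were the most even of all 10 loci. The mean of 0.24 ± 0.08 (SE, n = 3 arrays) was called, with adjusted p = 0.0369 (limma) and a range of 0.0305 to 0.343 over the alternatives.

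IAA14 (Os03g0797800, chromosome 3) had a dim probe. Its signal was 254, 284 and 212 under vanadium and 246, 188 and 196 in water. The log2 ratios were 0.05, 0.59 and 0.12, of which that of replicate 2 stood apart, and the groups overlapped. The mean of 0.25 ± 0.12 (SE, n = 3 arrays) nearly equalled that of IAA31 but was not called, given this spread (limma, adjusted p = 0.131).

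IAA10 (Os02g0817600, chromosome 2), known in rice as a protein bound and stabilised by a viral protein, had a signal of 3979, 3489 and 3501 under vanadium and of 4331, 3961 and 4103 in water. The groups overlapped slightly, and vanadium was the lower channel on every array. The log2 ratio of -0.18 ± 0.08 (SE, n = 3 arrays) did not pass the test (limma, adjusted p = 0.0966). With the scanner software's log ratio it was -0.29 and was called lower (adjusted p = 0.0459), and set against that scaling's median over all loci it was -0.17.

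IAA13 (Os03g0742900, chromosome 3), which acts in the start of lateral roots in rice, had a signal of 42749, 43089 and 37180 under vanadium and of 59089, 42836 and 43349 in water. The water signal of replicate 1 stood apart from the other 5 values, and the groups overlapped. The log2 ratios were -0.47, 0.01 and -0.22, which made IAA13 the one locus of the 10 whose sign differed between arrays. The mean of -0.23 ± 0.11 (SE, n = 3 arrays) was not called (limma, adjusted p = 0.123). With slide as a block it was -0.29 (adjusted p = 0.0314), and on the slide that held replicates 2 and 3 alone it was -0.11.

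Of the 10 loci, 5 were read by more than 1 probe, each named for a different cDNA clone, so a single poorly made probe can be looked for there. The array files give no probe sequence, so how far the probes of a locus overlap, and whether they cross-hybridise with other Aux/IAA transcripts, was not tested. In the test over all probes, 14 of the 22 probes that passed the filter were called higher and 0 lower, where 29.1% of 29703 probes were higher and 21.4% lower. All 5 probes of IAA19 were called, with log2 ratios between 1.57 and 1.70. All 4 probes of IAA1 were called as well, between 1.05 and 1.19. These spreads of 0.14 and 0.15 are smaller than the distance between the loci. The 3 probes of IAA10 gave log2 ratios between -0.18 and -0.09, and none was called. IAA13 was the least uniform, with 4 probes between -0.23 and 0.16 and none called. Its 2 brightest probes had ratios of -0.47, 0.01 and -0.22 and of -0.47, -0.00 and -0.23 on replicates 1, 2 and 3. The probe of clone AJ251791 instead had 0.05, 0.24 and 0.19, with a mean of 0.16 ± 0.08 (SE, n = 3 arrays; limma, adjusted p = 0.142), so no direction is shown at IAA13. The second probe of IAA23 was left out because its spot on replicate 1 was marked as an outlier, and its ratios on replicates 2 and 3 were 1.09 and 0.94. IAA9, IAA20, IAA24, IAA31 and IAA14 each rested on 1 probe, and these include the 2 largest rises.

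**Figure D3:**
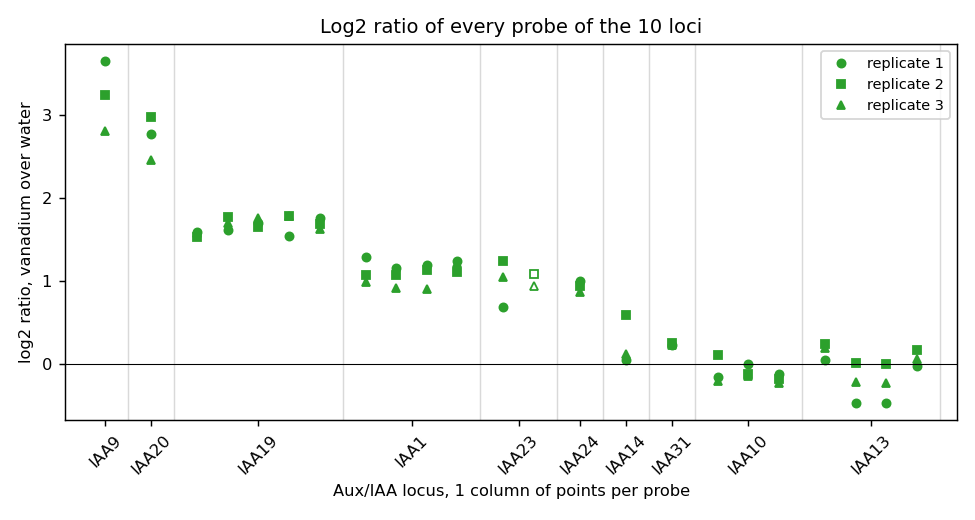
Log2 ratio of vanadium over water (vertical axis) for each of the 23 probes, in 1 column per probe, grouped by locus. Symbols are the arrays, and open symbols mark the probe of IAA23 that was not tested. The 5 probes of IAA19 and the 4 of IAA1 keep close together, while the probes of IAA13 lie on both sides of 0.

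The order of the loci was much the same on every array. IAA9 had the highest ratio on all 3, followed by IAA20 and then by IAA19. Among the 45 pairs of loci, 41 differed in the same direction on every array. IAA9 exceeded IAA20 by a mean log2 difference of 0.50 ± 0.33 (SD, n = 3 arrays), IAA20 exceeded IAA19 by 1.04 ± 0.24, and IAA19 exceeded IAA1 by 0.62 ± 0.18. Neighbours that did not differ beyond their spread were IAA1 and IAA23 (0.09 ± 0.37), IAA23 and IAA24 (0.06 ± 0.33), IAA14 and IAA31 (0.01 ± 0.28), and IAA10 and IAA13 (0.05 ± 0.27). With 3 arrays the smallest two-sided p of an exact permutation test of such a difference is 0.25, so these differences are given without a test. Across the 10 loci, the log2 ratios of any 2 arrays had a Pearson's r between 0.975 and 0.990, and across all 21094 tested loci between 0.901 and 0.932. The arrays share probes and dye orientation, and genes are not independent replicates.

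Of 21 other loci listed as Aux/IAA genes, 20 were on the array and 14 passed the filter. Of these 7 were called higher, 4 lower and 3 were not called (limma), against 29.8% higher and 21.3% lower over all loci. One of the 7, IAA16 (Os05g0186900), was well above background on 3 vanadium arrays but on 1 water array, so it was tested only through the channel in which it was brighter. Of the 13 well above background in both channels 6 were higher and 4 lower. Under that filter 5143 of 19062 loci were higher and 4351 lower. The median log2 ratio of the 14 was 0.18. The highest was IAA12 (Os03g0633800), at 1.22 ± 0.09 (SE, n = 3 arrays; adjusted p = 9.87e-05). The lowest was IAA6 (Os01g0741900), linked in rice to drought tolerance and tiller growth, at -0.81 ± 0.10 (adjusted p = 0.00119). At least 2-fold changes were found at 2 of the 14 and at 4 of the 10 loci followed here, all upward. Of all tested loci 8.86% were at least 2-fold higher. The 10 were picked with earlier results of these data known, so the difference between these counts shows nothing about them. Os12g0601300, listed as IAA30 and next to IAA31 in locus number, had a log2 ratio of 0.11 ± 0.08 and was not called (adjusted p = 0.270). Whether these neighbours cross-hybridise was not tested.

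The partners of Aux/IAA proteins were called in both directions, and their counts stand against the 29.8% higher and 21.3% lower of all tested loci. Among 4 tested loci listed as TIR1/AFB receptors, 1 was called higher, 1 lower and 2 were not called, with log2 ratios from -0.33 to 0.77 and a median of -0.02. The lower call was lost under 8 of 13 alternatives and the higher call under 1. Of 20 tested loci listed as ARFs, the factors that Aux/IAA proteins hold inactive, 3 were higher, 5 lower and 12 not called, which is a smaller share higher than over all loci and a share lower close to it. Their log2 ratios ran from -0.60 to 0.59, with a median of -0.17, and none reached 2-fold. With the scanner software's log ratio 11 of the ARF loci were lower and 1 higher. Under that scaling 6910 of all 21094 tested loci were lower and 4885 higher. The median of all loci moved from 0.02 to -0.12. Of 3 loci listed as TOPLESS-type corepressors 2 were higher, by at most 0.25. The alternatives called 0 to 2 of them higher and 0 to 1 lower. The count of 2 higher was kept under only 2 of 13 alternatives.

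Of the loci listed for auxin synthesis (tryptophan aminotransferase and YUCCA enzymes), 6 were tested, but 3 of these were well above background on all arrays under vanadium but not on all in water. Those 3 were tested only through the channel in which they were brighter, so the count over all 6 shows nothing about the list. The other 3 were well above background in both channels, a filter under which 5143 of 19062 loci were called higher. All 3 were called higher, where 29.8% of all tested loci were: Os03g0162000 at 0.71, Os04g0128900 at 0.58 and FIB (Os01g0169800), a tryptophan aminotransferase, at 0.58. The call was made at 2 of the 6 with median centring and at 2 without the pairing of channels. Of 4 tested loci listed as GH3 enzymes, which attach amino acids to hormones, 3 were higher and 1 lower, between -0.27 and 0.66, against the same shares over all loci. The highest of these, Os05g0586200 at 0.66 ± 0.15 (SE, n = 3 arrays; limma, adjusted p = 0.0133), is the one that the reference table also calls JAR1, an enzyme that conjugates jasmonate, not auxin, which leaves 2 higher among the other 3. With median centring and without pairing 0 of the GH3 loci were called. None of the tested receptor, ARF, corepressor, GH3 and synthesis loci reached 2-fold.

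**Figure D4:**
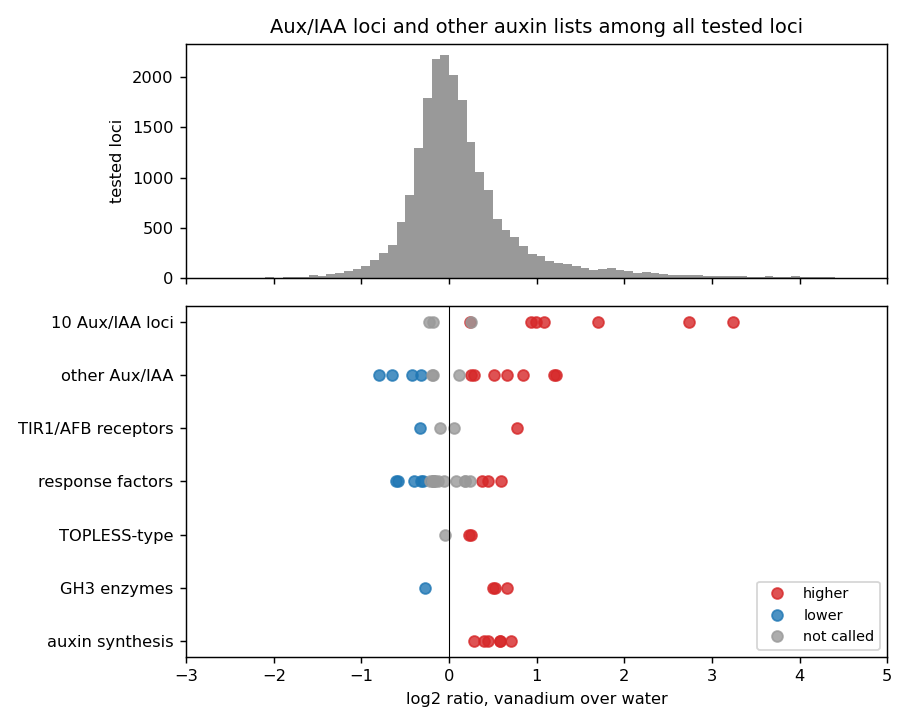
Top: number of tested loci per bin of 0.1 in log2 ratio of vanadium over water, for all 21094 loci (the axis is cut at -3 and 5). Bottom: each tested locus of the auxin lists on the same axis, red where called higher, blue where called lower, grey where not called. IAA9, IAA20 and IAA19 lie to the right of every other listed auxin locus.

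Markers of tissue were read on the same arrays. All 5 loci listed for root, among them the silicon transporters Lsi1 and Lsi2, were well above background in both channels on every array, and 4 were lower and 1 was higher under vanadium. Their summed signal, carried mostly by 1 of them, lay between 220838 and 250699 under vanadium and between 138425 and 208885 in water. Of 5 loci listed for green shoot, 3 were tested, each through 1 channel only, and 0 were called. The summed signal of the 5 lay between 739 and 882 under vanadium and was 3226, 683 and 608 in water on replicates 1, 2 and 3. The water sample of replicate 1 stood apart mostly through Os09g0346500, with a signal of 1864 there against 157 and 154 on the other arrays. It was not the only such locus. The water signals of Os01g0600900 and Os12g0291100 ran from 89 to 692 and from 86 to 328, each highest in the water sample of replicate 1. At IAA23, IAA14 and IAA13 the same water sample was the highest of the 3 and the ratio of its array the lowest. It was also the highest at IAA9, IAA1, IAA24 and IAA10, where the ratio of its array was the highest (3.65, 1.20, 1.01 and -0.12). At IAA20 and IAA31 it was again the highest, and the ratio lay between the others. At the IAA13 probes of clones AK062852 and AK100790 the water signal was highest on replicate 3. The part of that water sample in the ratios was not tested. Without replicate 1 the log2 ratio was 1.15 for IAA23, 0.35 for IAA14 and -0.11 for IAA13. It was 3.03 for IAA9, 1.02 for IAA1, 0.90 for IAA24 and -0.21 for IAA10. Of 5 loci listed for seed storage, 3 were never well above background and 1, Os05g0329100, was tested. It was well above background on 3 vanadium arrays and 1 water array, and so entered only through the channel in which it was brighter. The seed sum lay between 530 and 573 under vanadium and between 480 and 530 in water. The part of root cell composition in the Aux/IAA values was not tested.

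The size of the 6 larger rises depended little on the processing. Over 13 alternatives the log2 ratio of IAA9 lay between 3.03 and 3.45 and that of IAA20 between 2.60 and 2.87. IAA19 lay between 1.56 and 1.73, IAA1 between 0.97 and 1.17, IAA23 between 0.87 and 1.15 and IAA24 between 0.81 and 0.97. No locus of the 10 changed sign under any of the 13. Replicates 2 and 3 shared a slide, and by themselves they gave 3.03 for IAA9, 2.72 for IAA20, 1.73 for IAA19, 1.02 for IAA1, 1.15 for IAA23 and 0.90 for IAA24.

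**Figure D5:**
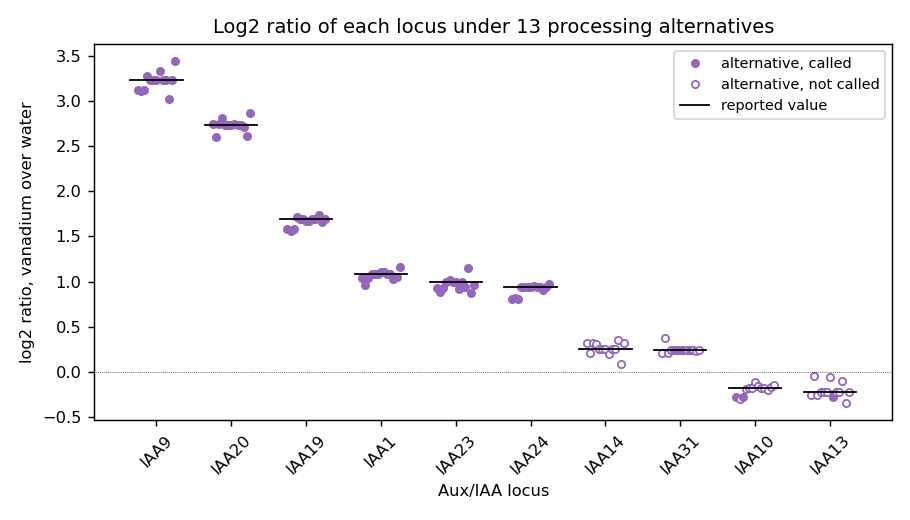
Log2 ratio of vanadium over water (vertical axis) of each Aux/IAA locus under 13 processing alternatives. Filled points were called at an adjusted p under 0.05, open points were not, and the black line is the reported value. IAA31 holds filled and open points, and IAA10 and IAA13 have filled points below 0.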

How the data were processed

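Each deposited array file gives, per spot, unnormalized red and green intensity with the local background, and a log10 red/green ratio of processed intensity, made with Agilent Feature Extraction 10.7.1.1 per the file headers. The value table deposited by the authors is in log2 and matched that log10 ratio, converted to log2, for the Aux/IAA probes. Per the labels' protocols, vanadium samples were labelled Cy5 and water controls Cy3. Median signals had their background removed by normexp (offset 50) and were normalized within arrays by loess, control spots at weight 0 (limma 3.58.1, R 4.3.3). Spots marked as outliers were left out, which took 306 to 1090 of 45151 spots per array. A probe had to be well above background on all 3 arrays in red or in green, and the brightest such probe stood for its locus. That marked spots do not count in this filter was decided after a first set of results had been seen, and the first setting was added as an alternative. Signals shown were also put on a common scale by quantile normalization of the arrays' mean intensities, which leaves ratios as they are. Ratios were tested against 0 with lmFit and eBayes (two-sided), adjusted by Benjamini-Hochberg over 21094 loci. The steps were also run on simulated data whose dye effect depended on intensity only. That run cannot show how a gene-specific effect of the dye would act. Mean signals were not used here.

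The pairing comes from the shared array. Across loci, the departures of the red and the green signal from their 3-array means correlated at 0.771, 0.607 and 0.773 within replicates 1, 2 and 3. Precision is limited by the number of arrays. The Aux/IAA loci and all lists were chosen with earlier results of these data known, from locus numbers recalled from general knowledge. All 10 loci were named by the rule that every one is described. Of other lists the highest and lowest locus could be named, and IAA30 and Lsi loci were added. IAA16, the synthesis loci and Os09g0346500, Os01g0600900, Os12g0291100 and Os05g0329100 were named after their values were seen. The reference table (assembly ASM3414082v1) holds no locus numbers. It lists all 10 IAA names, and 18 of the 21 others, on the chromosome and in the order of the locus numbers. Alternatives were the scaling, offset, filter, choice of probe, slide, pairing, outliers and each replicate left out. No sequences of probes, proteins or promoters were used here.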

Additional observations from a re-analysis of the deposited data

How the results depend on the processing

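Each result was recomputed under 13 alternatives, and under 1 more chosen after seeing the data. Of the 13, the scanner log ratio and the authors' table gave the same values after rounding, so they count as 1. IAA9, IAA20, IAA19, IAA1, IAA23 and IAA24 were called higher under all of them, and IAA14 under none, so 6 to 7 loci were higher. IAA31 lost its call at a log2 ratio of 0.21 with the scanner log ratio and with the authors' table, at 0.37 with median centring, at 0.24 with an offset of 0 and at 0.24 without the pairing of channels (no replicate block). It also lost it without any one replicate, at 0.23 to 0.24. Leaving out an array leaves fewer samples by construction, and the cause of the other losses was not tested. IAA10 was called lower at -0.29 with the scanner log ratio and with the authors' table, and IAA13 at -0.29 with slide as a block, so 1 locus was lower under each of these, against 0. The cause was not tested. The fit without the pairing changed no other call among the 10. Without replicates in turn, IAA9 was 3.03 to 3.45, IAA20 2.61 to 2.87, IAA23 0.87 to 1.15, IAA14 0.08 to 0.35 and IAA13 -0.34 to -0.11. IAA14 was 0.08 without replicate 2. With outlier spots counted in the filter, the added alternative and first setting used, 21360 loci were tested, 7 of the 10 were higher and 0 lower, 5 were at least 2-fold higher against 4, and 0 corepressors were higher and 1 lower. The receptor called lower was lost. Over all loci, 6281 were higher and 4497 lower, against 4885 and 6910 with the scanner log ratio, 4073 and 3276 with median centring and 3221 and 1371 without pairing. Without replicate 3, 2881 were lower. Of other Aux/IAA loci 4 to 7 were higher and 2 to 5 lower, of ARFs 1 to 4 and 2 to 11, of auxin synthesis 2 to 6 and 0 (3 were not tested when both channels had to be well above background), of GH3 0 to 3 and 0 to 1, of corepressors 0 to 2 and 0 to 1, of receptors 0 to 1 each way.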
